A study of Mus musculus with 50 samples.

Results

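The transcripts followed here are 34 genes of skeletal muscle, out of 22180 genes measured by a probe set of their own on 50 mammary tumour biopsies. They were listed by name: 7 belong to the thick filament, 8 to the thin filament, 8 to the Z disc and scaffold, 6 to calcium release and uptake and 4 to energy metabolism, and Asb11 is a ubiquitin ligase adaptor. Each gene was read from the probe set, matched to that gene alone, with the highest mean. All 34 genes had one, and 31 of them had only 1 to choose from.

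The animals were female mice of a backcross (F1Bx) in which hybrids of C57BL/6J and FVB/NJ were mated to FVB/NJ MMTV-Erbb2 mice, so genetic background varied between animals. In the MMTV-Erbb2 transgene, the only allele named, the mouse mammary tumour virus promoter drives the receptor gene Erbb2 mainly in mammary epithelium. The tumours arose spontaneously. Every biopsy preceded drug treatment. The treatment label names docetaxel while the series title names doxorubicin, and no age, litter or tumour site is given. The samples form 1 group with 1 array per tumour, so a single tumour's value has no replicate check, and the range over the other tumours is its only measure of error.

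Striated muscle contracts when heads of myosin on thick filaments pull on actin in thin filaments, which are anchored at Z discs. The troponin complex on actin blocks this until calcium leaves the sarcoplasmic reticulum, and a calcium pump then returns it. Fast and slow fibres are built from different genes for the same parts: each has its own myosin heavy chains, troponins and calcium pump. Mammary epithelium has no sarcomeres, and in the body the mammary fat pads lie beside skin and trunk muscle.

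Below, the excess of a gene in a tumour is its log2 value minus the median of that gene over all 50 tumours, and a gene is called raised when its excess is at least 1 log2, that is 2-fold. In mid100, 30 of the 34 genes were raised, against 5.12% of all 22180 genes in that tumour. In mid71, 29 were raised, against 1.31% of all genes, and those 29 were raised in both. The median excess of the 34 genes was 4.73 log2 in mid100 and 4.005 log2 in mid71. For 31 of the 34 genes these tumours held the highest pair of values, with mid100 above mid71 for 24 genes and below it for 10.

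In 4 further tumours the muscle genes stood out at a lower level. In mid30, 12 genes were raised (0.663% of all genes) with a median excess of 0.81. In mid82, 9 were raised (0.6% of all genes) with a median of 0.49, and in mid9 also 9 (3.44% of all genes) with a median of 0.39. In mid54, 8 were raised (1.69% of all genes), with a median of 0.47. These 4 were singled out after their values were seen, by a limit of at least 5 raised genes.

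The remaining 44 tumours carried little of this signal. In mid79, Myl1, Des and Pygm were raised, by 2.29, 1.35 and 1.04 log2, where 6.79% of all genes were raised. Acta1 alone was raised in mid120 (1.18 log2; 0.401% of all genes) and Tnnt3 alone in mid60 (1.29 log2; 5.75% of all genes). No member was raised in the other 41 tumours. Under the limit, mid120 also had Myh1 at 0.895, Tnnt3 at 0.725 and Neb at 0.52 log2. In mid102, Acta1 reached 0.825. That tumour was the highest of the 44 for Ttn, Actn3, Myh2, Atp2a1, Mybpc1 and Xirp2, with excesses from 0.285 to 0.48 log2. Close to the limit, Myh2 in mid30 and Tnnt3 in mid9 lay just inside at 1.01 and 1.02 log2, while Des in mid30 and Myh1 in mid9 lay just outside, both at 0.99.

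**Figure D1:**
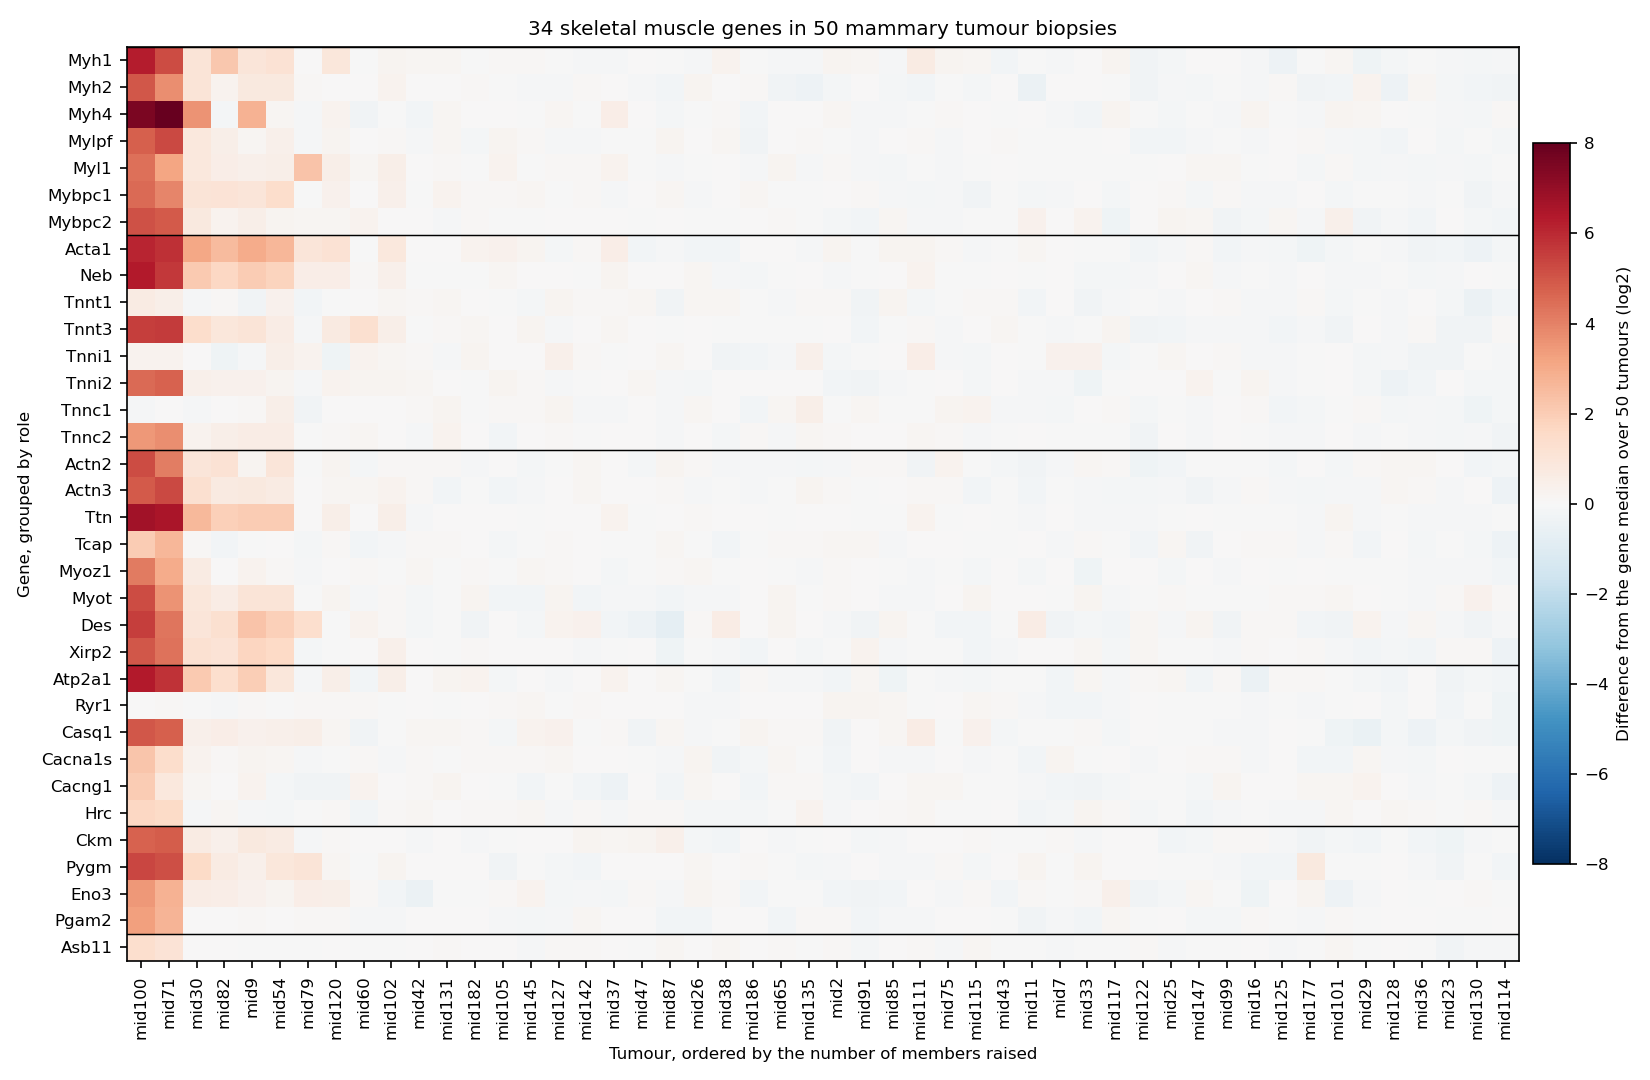
Heat map of the excess (log2 difference from the gene's median over 50 tumours) of 34 muscle genes, in rows grouped by role, in 50 tumours, in columns ordered by the number of genes raised. The columns of mid100 and mid71 are strongly coloured for 30 and 29 genes, and mid30, mid82, mid9 and mid54 are coloured for 12, 9, 9 and 8. The rows of Tnnt1, Tnni1, Tnnc1 and Ryr1 stay pale. Ryr1 is shown by its probe set with the higher mean.

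The thick filament genes were all raised in mid100 and mid71, 7 of 7 in each, with Myh4 the furthest above its median in both. Myh4 encodes the myosin of the fastest fibres, type 2B. Over the 50 tumours it ran from 3.76 to 12.01 log2 with a median of 4.04. It was 12.01 in mid71, 11.58 in mid100, 7.61 in mid30 and 6.80 in mid9. It was 4.20 in mid54 and 3.89 in mid82, which lie inside the range of 3.76 to 4.59 of the other 44 tumours. Its excess was 7.55 log2 in mid100, 7.98 in mid71, 3.58 in mid30 and 2.77 in mid9. No fold is given for Myh4, because its median lies below 4.09 log2, the filter level used in the regressions described later, where low signals are compressed.

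Myh1 encodes the myosin of type 2X fibres and Myh2 that of type 2A fibres. Myh1 ran from 3.44 to 10.13 with a median of 3.85 log2. It was 10.13 in mid100, 9.06 in mid71, 6.03 in mid82, 4.97 in mid54, 4.88 in mid30 and 4.83 in mid9, while the other 44 tumours lay between 3.44 and 4.74. After mid100 and mid71 its highest tumour was thus mid82, the one in which Myh4 lay below its median. Myh2 ran from 4.41 to 9.85 with a median of 4.90 log2, and was 9.85 in mid100, 8.60 in mid71, 5.90 in mid30, 5.66 in mid9 and in mid54, and 5.20 in mid82, where the other 44 tumours reached 5.19. In RefSeq, Myh2, Myh1 and Myh4 follow each other without another coding gene between them on chromosome 11. They are near copies of one another, so how far their probes tell them apart is uncertain, since probe sequences were not used here.

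Of the other thick filament genes, Mylpf, the fast regulatory light chain, had the lowest median, 3.58 log2, and rose to 8.83 in mid71 and 8.35 in mid100. Its mean lies below that filter level too, the only member of which this is true. Myl1, the fast essential light chain, was 8.80 in mid100, 7.55 in mid71 and 6.66 in mid79, against a median of 4.38. Mybpc2, the fast myosin binding protein C, was 9.69 and 9.52 in mid100 and mid71. Mybpc1, its counterpart best known from slow fibres but present in fast ones too, was 8.90 and 8.27 and was raised in mid54, mid82 and mid30 as well, by 1.40, 1.12 and 1.05 log2. Mybpc1 was the thick filament gene with the highest excess in mid54.

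Among thin filament genes, Acta1, skeletal muscle actin, was the most widely raised member, in 7 tumours. It ran from 5.91 to 12.38 with a median of 6.31 log2. It was 12.38 in mid100, 12.12 in mid71, 9.41 in mid30, 9.30 in mid9, 8.97 in mid54, 8.82 in mid82 and 7.48 in mid120. The 6 first values all lie above every one of the other 44 tumours, which follows in part from how the 6 were chosen. Neb, nebulin, which runs along the thin filament, ran from 4.24 to 10.78 with a median of 4.41 and followed the same tumours: 10.78 in mid100, 10.07 in mid71, 6.51 in mid30, 6.41 in mid9, 6.19 in mid54 and 6.08 in mid82.

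The troponin probe sets divided by fibre type. Tnnt3, the fast troponin T, ran from 5.71 to 11.60 with a median of 6.00 log2, at 11.60 in mid71 and 11.51 in mid100. Tnni2, the fast inhibitory subunit, reached 10.45 and 10.28 in these tumours, and Tnnc2, the fast calcium-binding subunit, 10.19 and 9.93. These fast subunits were 48.7-, 26.4- and 13.4-fold their medians in mid71.

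None of the 3 slow subunits was raised in any of the 50 tumours. Each had only 1 probe set of its own, and whether these probe sets respond to slow fibre RNA was not tested. Tnnt1, slow troponin T, ran from 4.60 to 5.71 with a median of 5.06, and its highest values were 5.71 in mid100 and 5.52 in mid71. Tnni1, the slow inhibitory subunit, ran from 5.34 to 6.22 with a median of 5.71, at 6.00 in mid100 and 5.98 in mid71, inside the range of 5.38 to 6.22 of the other 44 tumours. Tnnc1, the calcium-binding subunit of slow and cardiac muscle, ran from 6.28 to 7.07 with a median of 6.60, at 6.51 in mid100 and 6.61 in mid71. Of the slow subunits Tnnt1 alone lay above the other 44 tumours in mid100 and mid71, with an excess of 0.66 and 0.47 log2.

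Upstream sequence is shown for 4 genes that contrast in these tumours: Acta1, the most widely raised member, the neighbours Myh4 and Myh1, which parted in mid82, and the unraised slow gene Tnni1. Each line gives the 250 bases before a start of the gene in RefSeq, on build GRCm38.p6, 5′ to 3′ on the strand of the gene. Capitals mark 4 motifs known from muscle promoters, sought on both strands: the E-boxes CAGCTG and CACCTG, the MEF2 motif and the CArG box. The windows are chr8:123894776-123895025 on the minus strand for Acta1, and on the plus strand chr11:67237562-67237811 for Myh4, chr11:67199852-67200101 for Myh1 and chr1:135799171-135799420 for Tnni1.

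Acta1: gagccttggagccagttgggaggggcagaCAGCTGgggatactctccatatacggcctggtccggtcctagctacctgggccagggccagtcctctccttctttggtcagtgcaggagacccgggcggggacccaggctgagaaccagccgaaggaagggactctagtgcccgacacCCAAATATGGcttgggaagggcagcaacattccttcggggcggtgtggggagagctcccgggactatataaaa
Myh4: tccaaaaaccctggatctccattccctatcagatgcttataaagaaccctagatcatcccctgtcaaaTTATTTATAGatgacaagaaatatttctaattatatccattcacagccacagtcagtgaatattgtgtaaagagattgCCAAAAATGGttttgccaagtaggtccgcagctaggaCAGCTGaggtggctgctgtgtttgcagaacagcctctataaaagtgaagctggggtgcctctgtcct
Myh1: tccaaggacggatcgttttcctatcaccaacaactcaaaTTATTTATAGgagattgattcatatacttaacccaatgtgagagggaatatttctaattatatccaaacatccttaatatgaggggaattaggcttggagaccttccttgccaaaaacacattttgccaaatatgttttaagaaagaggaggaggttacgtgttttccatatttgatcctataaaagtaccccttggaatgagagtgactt
Tnni1: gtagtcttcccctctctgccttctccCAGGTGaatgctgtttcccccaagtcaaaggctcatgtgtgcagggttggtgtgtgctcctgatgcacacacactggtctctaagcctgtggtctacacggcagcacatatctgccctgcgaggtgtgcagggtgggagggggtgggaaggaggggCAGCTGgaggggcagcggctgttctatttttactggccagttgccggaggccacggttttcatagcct

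Acta1 holds CAGCTG starting 221 bases and a CArG box starting 73 bases before its start. Myh4 holds a MEF2 motif at 182, a CArG box at 104 and CAGCTG at 67 bases, while Myh1 holds a MEF2 motif of the same letters, TTATTTATAG, at 211 bases and neither of the other kinds. Tnni1 holds CACCTG, read as CAGGTG on this strand, at 224 bases and CAGCTG at 68 bases. A second start of Tnni1, with the window chr1:135799261-135799510, has the same CAGCTG at 158 bases and no CACCTG. Of the 34 genes, 26 have an entry in the RefSeq table used, with 27 promoters, since Tnni1 has a second. CAGCTG lay in 15 of these 27 (55.6%), against 13% of 32851 promoters of all genes, and CACCTG in 7 (25.9% against 17.2%). The 15 count the CAGCTG of Tnni1 for both starts, and by gene it was 14 of 26. MEF2 motifs lay in 5 (18.5% against 2.92%) and CArG boxes in 2 (7.41% against 1.47%). A match is a run of letters and not a measured binding site.

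The Z disc and scaffold genes were raised 8 of 8 in mid100 and in mid71, and 3 were raised in mid30 and 4 each in mid82, mid9 and mid54. The thick filament genes were raised 4 of 7 in mid30, 2 in mid82, 1 in mid9 and 2 in mid54. Ttn encodes titin, the giant protein that spans the sarcomere from Z disc to M line. It ran from 4.44 to 11.25 with a median of 4.55 log2: 11.25 in mid100, 11.11 in mid71, 7.14 in mid30, 6.58 in mid9, 6.56 in mid54 and 6.45 in mid82. The other 44 tumours lay between 4.44 and 5.03, so no tumour of the 6 overlapped them, which follows in part from how the 6 were chosen. Ttn was 104-fold its median in mid100 and 94.4-fold in mid71.

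Des, desmin, links neighbouring Z discs and is also made in smooth muscle. It ran from 4.66 to 10.89 with a median of 5.39 log2. It was 10.89 in mid100, 9.67 in mid71, 7.66 in mid9, 7.28 in mid54, 6.73 in mid79, 6.65 in mid82 and 6.37 in mid30. Des thus ordered the weaker tumours differently from Ttn, with mid9 first and mid30 last of the 4, and mid79 above mid82 and mid30.

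Xirp2, an actin-binding repeat protein of muscle, was 8.92 in mid100, 8.29 in mid71, 5.64 in mid9, 5.52 in mid54, 5.15 in mid30 and 5.04 in mid82, with the other 44 tumours between 3.55 and 4.34. It was raised in all 6 tumours. Myot, myotilin, was raised in mid100, mid71, mid9 and mid54, with excesses of 5.24, 3.58, 1.06 and 1.01 log2. Actn2, the alpha-actinin of all fibres, was raised in mid100, mid71 and mid82, by 5.22, 4.09 and 1.18 log2. Actn3, the alpha-actinin of fast fibres, was raised in mid71, mid100 and mid30, by 5.31, 4.88 and 1.30 log2. Actn2 and Actn3 thus gave the opposite order for mid30 and mid82. Myoz1, a Z disc protein of fast fibres, and Tcap, the titin cap, were raised only in mid100 and mid71, Myoz1 by 4.17 and 2.995 log2 and Tcap by 2.03 and 2.64.

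Of the 6 genes of calcium handling, 5 were raised in mid100 and 4 in mid71. Atp2a1, the calcium pump of fast fibres, ran from 4.62 to 11.43 with a median of 5.07 log2. It was 11.43 in mid100, 10.88 in mid71, 7.17 in mid30, 7.01 in mid9, 6.42 in mid82 and 5.99 in mid54, and the other 44 tumours reached 5.54. Casq1, the calcium store of the reticulum, was 9.69 and 9.47 in mid100 and mid71 against a median of 4.70, and its excess was under 1 log2 elsewhere. Cacna1s, the voltage sensor of the transverse tubule, gained 2.19 and 1.41 log2 there, and Hrc, a calcium-binding protein of the reticulum, 1.65 and 1.53. Cacng1, another subunit of the voltage sensor, gained 2.02 log2 in mid100 and 0.85 in mid71.

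Ryr1, the calcium release channel, depended on the probe set. The one with the higher mean ran from 5.30 to 5.85 with a median of 5.62 log2 and was 5.65 in mid100 and 5.70 in mid71. The other ran from 4.71 to 9.05 with a median of 4.95 and was 9.05 in mid100, 8.66 in mid71, 5.52 in mid30, 5.51 in mid9, 5.47 in mid54 and 5.24 in mid82. The choice of the highest mean thus hid an excess of 4.10 and 3.71 log2 for this gene. For Ckm and Xirp2 the same choice took the probe set that was raised, and the unused probe set had excesses of at most 0.79 and 0.49 log2.

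The 4 genes of energy metabolism were raised in both mid100 and mid71. Ckm, muscle creatine kinase, ran from 5.44 to 10.63 with a median of 5.80 log2, at 10.63 in mid71 and 10.49 in mid100, and no other tumour exceeded 6.58, in mid9. Pygm, muscle glycogen phosphorylase, was 10.27 in mid100, 10.06 in mid71, 6.48 in mid30 and 5.97 in mid79, against a median of 4.93. Eno3 and Pgam2, the muscle forms of enolase and phosphoglycerate mutase, gained 3.47 and 3.29 log2 in mid100 and 2.77 and 2.73 in mid71. In mid82, mid9 and mid54 none of the 4 was raised. Asb11 gained 1.36 log2 in mid100 and 1.07 in mid71, and between −0.04 and 0.06 in the 4 weaker tumours.

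By fibre type, the 12 members specific to fast fibres were raised 12 of 12 in mid100 and in mid71. Their median excess was 4.92 log2 in mid100, from 3.48 for Tnnc2 to 7.55 for Myh4, and 5.07 in mid71, from 2.995 for Myoz1 to 7.98 for Myh4. The 3 slow members had medians of 0.29 and 0.27. Fast and slow members did not overlap in either tumour. The lowest fast excess was 3.48 against a highest slow excess of 0.66 in mid100, and 2.995 against 0.47 in mid71. This rests on taking only the 3 troponins as slow. Mybpc1, best known from slow fibres but counted with the other members, had excesses of 4.555 in mid100 and 3.925 in mid71. Both lie above the lowest fast excess of that tumour. The values come from different probe sets. The comparison of fast and slow members thus sets each gene against its own median and does not compare the levels of the genes. A probe set that does not respond would look like an unraised gene.

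In the weaker tumours the fast members were raised 6 of 12 in mid30 (median 0.93 log2), 3 of 12 in mid9 (0.68), 2 of 12 in mid82 (0.49) and 1 of 12 in mid54 (0.54), and no slow member was. The slow medians were −0.09 in mid30, 0.02 in mid82 and −0.08 in mid9. In mid54 all 3 slow troponins lay above their medians, Tnnt1 by 0.34, Tnni1 by 0.45 and Tnnc1 by 0.46 log2. Their median there, 0.45, lies above the range of −0.32 to 0.39 of the other 44 tumours and above mid100 and mid71. For Tnni1 and Tnnc1 single tumours among the 44 were higher still, at 6.22 in mid111 against 6.16 and at 7.07 in mid135 against 7.06.

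**Figure D2:**
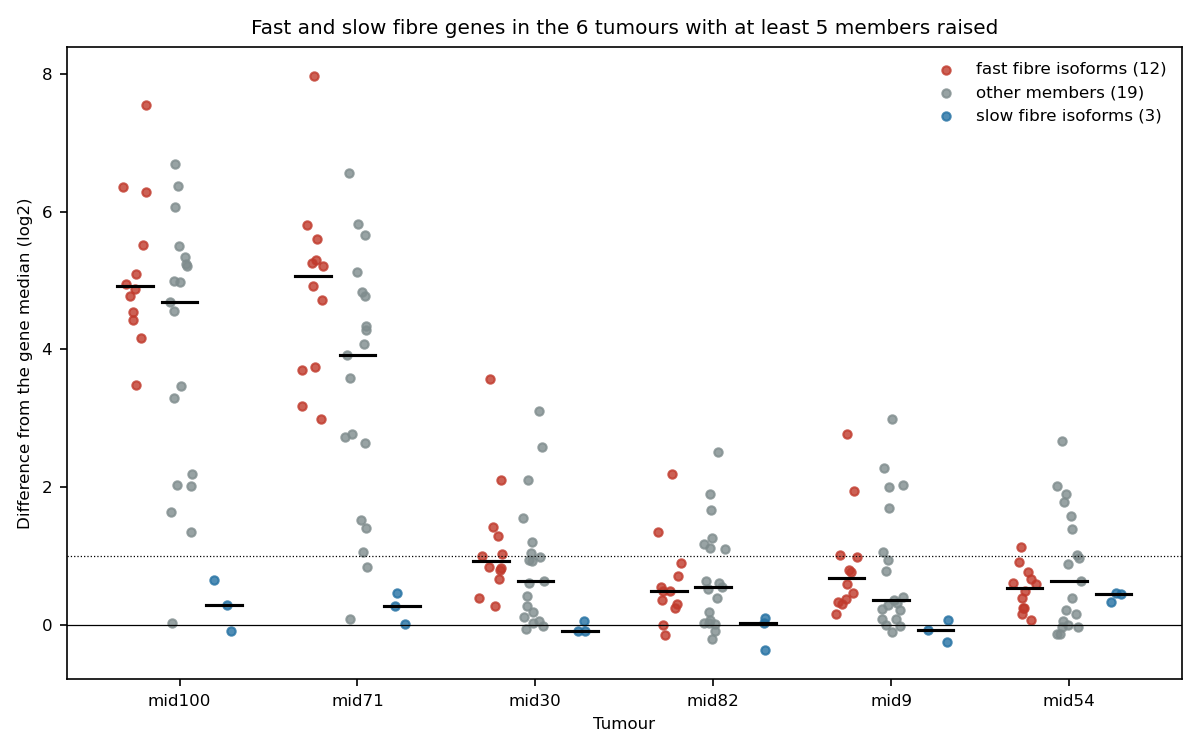
Excess in log2 of 12 fast fibre genes, 19 other members and 3 slow fibre genes, each point a gene and each bar a median, in the 6 tumours with at least 5 genes raised; the dotted line marks 1 log2. Fast and slow genes are far apart in mid100 (medians 4.92 and 0.29) and mid71 (5.07 and 0.27), and in mid54 they are close (0.54 and 0.45).

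Fibre genes outside the 34 gave a similar division with exceptions. The fast genes Pvalb, the calcium buffer parvalbumin, and Mylk2, the skeletal myosin light chain kinase, gained 4.21 and 2.19 log2 in mid100 and 2.68 and 1.82 in mid71. Of 7 slow genes, 2 were raised in mid100 and 1 in mid71. Myh7, the slow myosin heavy chain, was 4.13 log2 in mid100 and 4.47 in mid71, against a median of 4.20 and a highest value of 4.38 among the other 44 tumours. Its slow light chains Myl2 and Myl3 had excesses of −0.18 and −0.21 log2 in mid100 and 0.15 and −0.02 in mid71. The raised ones were Myoz2, a Z disc protein of slow and cardiac fibres, by 2.76 log2 in mid100 and 1.86 in mid71, and Casq2, the cardiac and slow calsequestrin, by 1.84 in mid100. In mid54 the excess of Myoz2 was 0.75 and that of Myh7 0.28, with Myh7 at 4.48, above the other 44 tumours.

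Of the developmental myosins, Myh3, the embryonic form, gained 1.38 log2 in mid100, 0.11 in mid71 and 0.60 in mid54, and Myh8, the perinatal form, 0.73, 0.12 and −0.06. Among 9 myogenic regulators, 3 were raised in mid100: Mef2c by 2.72, Myf6 by 2.55 and Mymk, needed for myoblast fusion, by 1.53 log2. In mid71 Mef2c and Myf6 were raised, by 1.54 and 1.32. Mef2c is also made outside muscle and was 2.50 log2 above its median in mid79. The excesses of Myod1 and Myog, the regulators of myoblast commitment and differentiation, were 0.22 and −0.08 in mid100 and −0.32 and 0.07 in mid71, and that of the satellite cell factor Pax7 was −0.30 and 0.12.

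To compare the amount of muscle signal between tumours gene by gene, the log2 values were turned back to a linear scale, and the gain over the gene's median was given as a percentage of the gain in mid100. This was done for the 30 genes raised in mid100. Signals near the bottom of an array are compressed, so these are shares of signal and not of tissue. In bulk RNA, fewer cells of a type and less RNA per cell cannot be told apart.

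In mid71 the median gain was 69.0% of that in mid100, from 26.2% for Cacng1 to 170% for Tcap. For 8 genes the gain in mid71 was above that in mid100: Tcap, Mylpf (141%), Actn3 (136%), Myh4 (135%), Tnnc2 (122%), Tnni2 (113%), Ckm (111%) and Tnnt3 (107%). Of these, 6 are members specific to fast fibres, which make up 12 of the 30 genes compared. At the other end, after Cacng1, stood Myot (29.8%), Myl1 (39.2%), Myh2 (40.1%), Myoz1 (41.2%), Des (41.6%), Actn2 (44.2%), Cacna1s (46.5%) and Myh1 (46.95%). Myl1, Myh2, Myoz1 and Myh1 among these are specific to fast fibres as well. Measured this way Myh4 was higher in mid71 than in mid100, while Myh1 and Myh2 were both under 50% of mid100.

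In the 4 weaker tumours the median gain was 3.41% in mid30, 2.46% in mid9, 1.75% in mid54 and 1.73% in mid82. The number of the 30 genes that lay above the whole range of the other 44 tumours was 22 in mid30, 19 in mid9, 16 in mid82 and 15 in mid54. Such counts follow in part from setting these tumours apart by the same genes. The share of all genes above that range was not computed. Acta1 gave the highest share in every one of them, 11.4%, 10.5%, 8.04% and 7.10% in mid30, mid9, mid54 and mid82. The myosins did not keep to one share. Myh4 gained 5.88% in mid30 and 3.12% in mid9 but 0.07% in mid54 and −0.05% in mid82. Myh1 gained 4.61% in mid82 and 1.27% to 1.53% in mid9, mid30 and mid54, and Myh2 3.35% in mid30, 2.33% in mid9 and in mid54, and 0.78% in mid82. Mybpc1 was highest in mid54, at 7.24%, and Des and Xirp2 in mid9, at 8.65% and 7.35%.

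**Figure D3:**
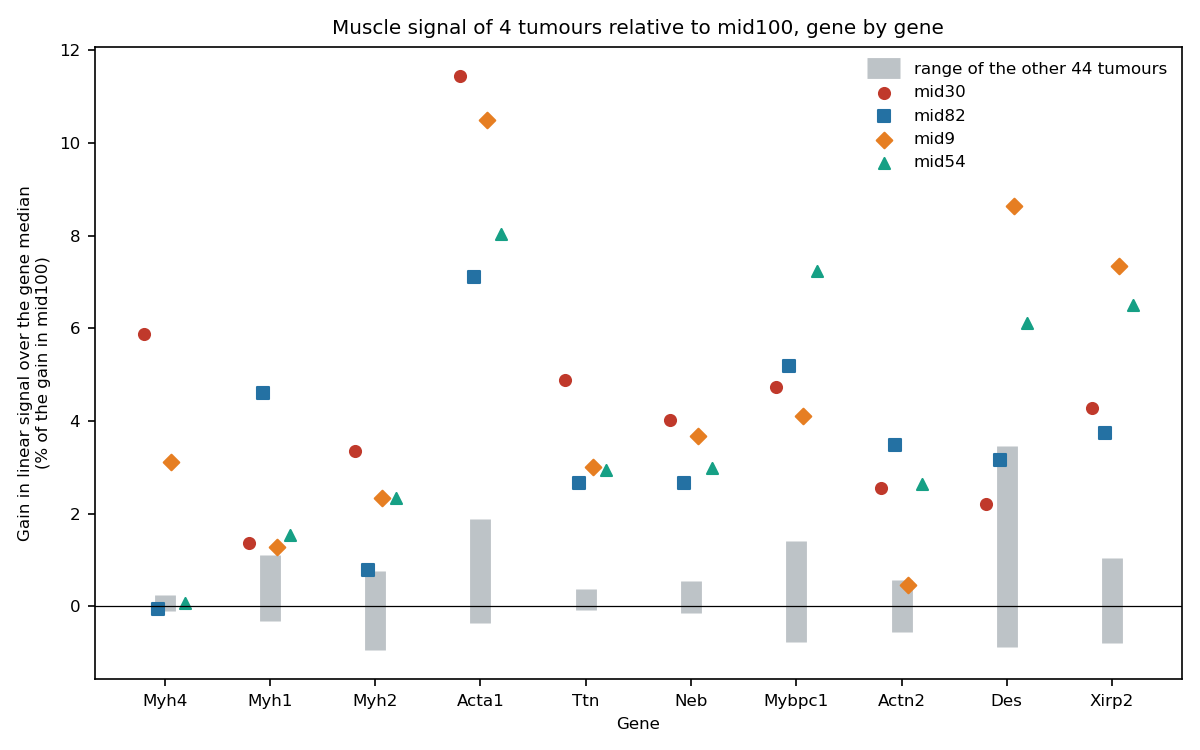
Gain in linear signal over the gene's median, as a percentage of the gain in mid100, for 10 genes in mid30, mid82, mid9 and mid54; grey bars give the range of the other 44 tumours. Myh4 stands out in mid30 (5.88%) and mid9 (3.12%) and lies in the grey range in mid82 and mid54, whereas Myh1 is highest in mid82 (4.61%).

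The spread of the 34 genes came from few tumours. Over all 50 tumours their median SD was 0.92 log2, from 0.11 for Ryr1 to 1.64 for Myh4. The unused probe set of Ryr1 had an SD of 0.78. For the 18045 genes expressed above the filter the median SD was 0.23, and 30 of the 34 exceeded that median. Without mid100 and mid71 the median SD was 0.24 against 0.22, and 19 genes exceeded it. Without the 6 tumours it was 0.15 against 0.22, and 7 exceeded it. In those 44 tumours Myl1 had the highest SD, 0.37, followed by Des at 0.33 and Acta1 at 0.32. Leaving out tumours with high values lowers a spread by construction, so these figures describe how it is distributed. The mean correlation between pairs of the 34 genes was 0.764 over the 50 tumours, 0.355 without mid100 and mid71, and 0.115 in the 44, over 561 pairs that share their arrays.

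**Figure D4:**
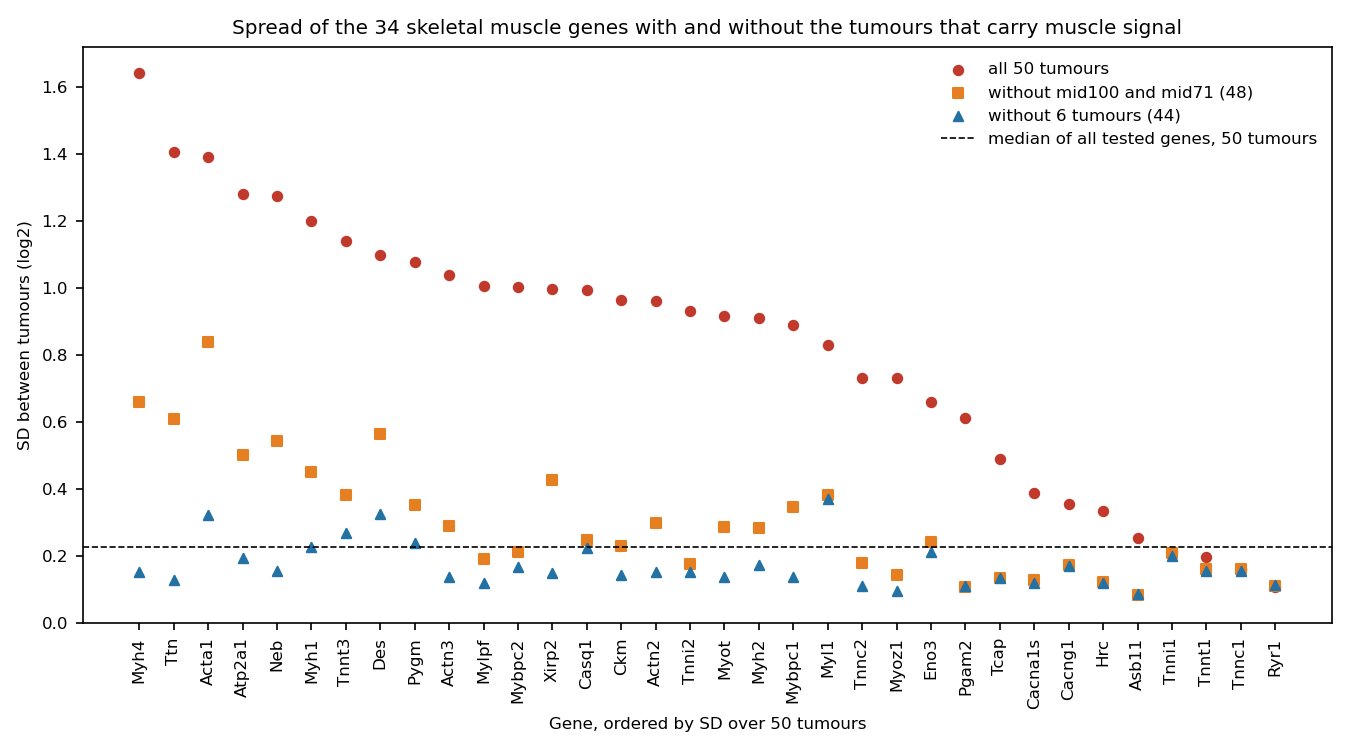
SD in log2 between tumours of each of the 34 genes over all 50 tumours, without mid100 and mid71, and without the 6 tumours with at least 5 genes raised; the dashed line is the median SD of all tested genes, 0.23. Most genes fall from near 1 log2 to under the line, and the last 4, Tnni1, Tnnt1, Tnnc1 and Ryr1, hardly move. Ryr1 is shown by its probe set with the higher mean.

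The genes outside the 34 with the most similar pattern were found by Pearson's r with the mean of the 34 standardised genes over the 50 tumours, a description that rests largely on mid100 and mid71. The first 8 were Trdn (0.982), Nrap (0.979), Csrp3 (0.976), Klhl41 (0.973), Klhl31 (0.969), Myom2 (0.968), Ampd1 (0.966) and Mstn (0.965). Trdn encodes triadin, which joins calsequestrin to the calcium release channel, and Mstn myostatin, a hormone made by muscle that limits its growth. They were followed by Pvalb, Txlnb, Mypn, Ppp1r3a, Ano5, Myoz2, Apobec2, Lmod2, Sln, 3425401B19Rik, Cmya5 and Cox6a2, down to 0.929. Of these 20, 12 were in the lists of muscle genes drawn up for comparison. Over the other 44 tumours Spearman's rho of these 20 genes with the mean of the 34 genes, standardised again within those 44, ran from −0.02 to 0.39. Trdn was 10.69 log2 in mid100, 9.72 in mid71, 5.99 in mid82, 5.86 in mid54, 5.71 in mid30 and 5.35 in mid9, against a median of 4.87. Mstn was 7.55 in both mid100 and mid71, against a median of 3.41.

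A list of 51 other striated muscle genes had 34 raised in mid100 and 26 in mid71, with median excesses of 1.63 and 1.14 log2, and between 0 and 1 raised in each of the 4 weaker tumours. Of 11 cardiac genes, Actc1, cardiac actin, was raised in mid100, by 2.12 log2, and none in mid71. The atrial myosin gene Myh6 had excesses of 0.26 and −0.20 there, and Tnnt2 of 0.42 and 0.11. Car3, a carbonic anhydrase abundant in muscle and in fat, gained 5.92 log2 in mid100, 5.34 in mid71, 2.91 in mid54, 2.63 in mid30, 2.32 in mid82 and 1.14 in mid9, and was highest, at 13.18, in mid79.

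Markers of other tissues differed between mid100 and mid71. Of 12 matrix and fibroblast genes all 12 were raised in mid100, by a median of 2.79 log2, and 10 in mid71, by 1.79. Of 12 endothelial genes 11 were raised in mid100 (median 1.96) and 1 in mid71 (0.44), and of 13 adipocyte genes 7 (1.01) and 1 (0.06). No skin, brown fat or peripheral nerve marker was raised in either, out of 10, 5 and 4. The part of these other tissues in the values of the muscle genes was not tested. The mammary epithelial genes had median excesses of −0.61 and −0.19, and Erbb2 itself was 11.43 and 11.68 log2 against a median of 11.71. In mid9 the matrix genes were raised 12 of 12 (median 2.72) and smooth muscle genes 4 of 8, with Acta2, smooth muscle actin, at 11.46, its highest value. In mid54 Acta2 was 11.02 and in mid30 and mid82 9.30 and 9.44, against a median of 9.24. Des, which smooth muscle also makes, was highest of the 4 in mid9 and mid54, as was Acta2, and the part of smooth muscle in the Des values was not tested. In mid79, where Myl1, Des and Pygm were raised, 13 of 13 adipocyte genes were raised, by a median of 5.33 log2. So were 12 of 12 endothelial genes (median 2.40) and 8 of 12 matrix genes (2.01), and Myh11, a smooth muscle myosin, gained 1.97 log2. In that tumour 10 of 11 mammary epithelial genes were lower by at least 1 log2, with a median excess of −2.90. The share of all genes lower by that much in mid79 was not computed.

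**Figure D5:**
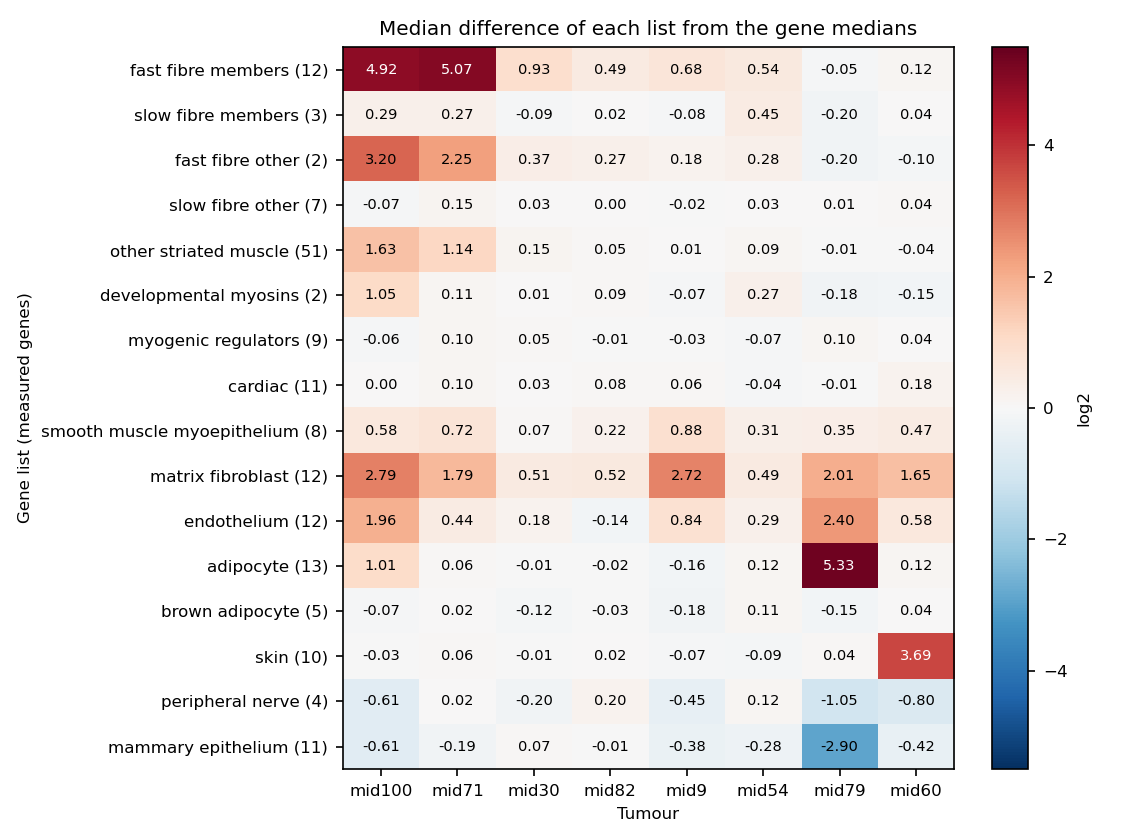
Median excess in log2 of each marker list (number of measured genes in brackets) in the 6 tumours with at least 5 muscle genes raised and in mid79 and mid60; each cell prints its value. Fast fibre genes stand at 4.92 and 5.07 in mid100 and mid71, matrix genes at 2.79 in mid100 and 2.72 in mid9, adipocyte genes at 5.33 in mid79 and skin genes at 3.69 in mid60.

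Whether the muscle genes changed with other features of the tumours was tested by limma regressions across the 18045 expressed genes, leaving out the genes of each predictor, with Benjamini-Hochberg adjustment. Of the 34 genes 33 passed the filter, and 3 of these, Myh1, Myh4 and Xirp2, passed it only through the tumours in which they are high, since their medians lie below it. Their calls are given below as a description. With the Erbb2 level, no member was called higher (16.6% of all genes were) and none lower (14.7%), and 0 had an unadjusted p under 0.05. Without mid60 and mid79, the tumours farthest from the median of Erbb2, again no member was called higher (0.2% of all genes) or lower (0.255%). Without the 6 tumours, Myl1, Des, Tnnt3 and Pygm were called lower, 4 of 33 against 14.9% of all genes, and none higher (16.2%). That fit kept mid79 and mid60, where the excess of Erbb2 was −2.455 and −2.685 log2. Myl1, Des and Pygm are the members raised in mid79, and Tnnt3 the one raised in mid60. No fit left out these tumours together with the 6. With the adipocyte score, a mean of standardised markers, 1 member, Myl1, was called higher (12.1% of all genes) and none lower (15%). The slope of Myl1 was 0.37 log2 per SD of the score (SE 0.10, limma adjusted p = 0.00487). Without mid79 and mid100, the tumours farthest from the median of that score, no member was called higher (0.383% of all genes) or lower (0.0111%).

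With the matrix score, 27 of 33 members were called higher (11.8% of all genes) and none lower (13.9%). The members not called were the 3 slow troponins, Ryr1, Tcap and Hrc, and the 27 include Myh1, Myh4 and Xirp2. Ryr1 was read here from its unraised probe set. Des had the smallest p, with a slope of 0.72 log2 per SD of the score (SE 0.12), and Acta1 a slope of 0.73 (SE 0.17, limma adjusted p = 0.000725). These calls rested on few tumours. Without mid9 and mid100, the farthest from the median of the score, Des (limma adjusted p = 0.00132) and Myl1 (limma adjusted p = 0.0163) were called, 2 of 33 against 8.96% of all genes, and none lower (6.57%). Without mid100 and mid71, 6 were called higher (10% of all genes): Des, Acta1, Neb, Myl1, Mybpc2 and Xirp2, the last a gene that entered the fit only through its high tumours. Hrc was called lower (8.58%). Without the 6 tumours, Des alone was called (9.03% of all genes), with a slope of 0.21 (SE 0.04), and no member was called lower (5.81%). In those 44 tumours Acta1 had a slope of 0.03 (SE 0.05), Ttn of −0.0034 (SE 0.02) and Myh4 of −0.03 (SE 0.02) log2 per SD of the score.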

How the data were processed

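Total RNA of 50 tumour biopsies was measured on Affymetrix arrays, 1 per tumour. The authors deposited log2 values per probe set, made with RMA per the submitters' processing notes. Those notes name no version, and they list the build mm8 without saying what it was used for. RMA includes quantile normalization, which makes the distributions of arrays alike. Low signals on such arrays are compressed. Array medians ran from 5.19 to 5.34 log2, no pair of arrays was identical, and the number of arrays limits the precision.

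Of 34472 probe sets, the platform annotation matched 23521 to 1 gene, 1814 to several and 9137 to none. The probe set with the highest mean stood for a gene (22180 genes), and regressions kept genes with a mean of at least 4.09 log2, the 25th percentile (18045 genes). Predictors were standardised over the tumours used. limma 3.58.1 (lmFit, eBayes with trend) ran in R 4.3.3, after being tested on simulated data, and values were computed in Python 3.11.15 with numpy 2.4.6, scipy 1.17.1 and pandas 2.3.3. p-values are 2-sided and were adjusted over all genes of a regression.

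The members and lists were chosen with earlier results of these data known. Named genes are the 34 members, Erbb2, the 20 most alike, the 10 genes outside the members furthest above their median in mid100 and in mid71, and of each list the 3 furthest above their median in mid100. Other genes were named after their values were seen. Alternatives covered the probe set, the normalization, the limit for a raised gene, the reference level, the filter, ranks, array weights and tumours left out. Promoters come from RefSeq on GRCm38.p6. No protein sequences were used here.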

Additional observations from a re-analysis of the deposited data

How the results depend on the processing

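For the main results, 84 values under an alternative kept to the main one and 21 moved. A count kept to it when within a set ratio of it, and another value when it shifted by less than its spread. The 84 include counts of 0 that stayed at 0. The count of 27 members called higher with the matrix score kept in 5 of 11 alternatives. Tumours with at least 17 of the 34 genes raised numbered 2 under the other probe set rules, normalization, reference and a limit of 2 log2, 3 at a limit of 0.5 log2, and 5 with a limit of 3 scaled median absolute deviations (mid100, mid71, mid30, mid54 and mid9). At 2 log2, mid30, mid82, mid9 and mid54 had 5, 2, 5 and 2 genes raised, and at 0.5 log2 21, 16, 15 and 16. With the limit of 3 scaled median absolute deviations, 8 tumours had at least 5 genes raised, among them mid120 with 6 and mid79 with 5. The median excess of slow genes in mid100 was 0.0325 log2 with the outside genes added, and the median SD of the members was 0.15 log2 as a scaled median absolute deviation.

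Members called higher with the matrix score were 9 of 14 tested with the 50th percentile filter (12.6% of all genes). Of the 14, Atp2a1 passed that filter, 5.27 log2, only through the tumours in which it is high, since its median is 5.07. Of 33 tested, the members called higher were 2 with ranks (8.13%), 2 without mid9 and mid100 (8.96%) and 7 without mid79, mid60 and mid100 (6.78%). They were 6, with 1 lower (Hrc), without mid100 and mid71 (10% higher, 8.58% lower). Without the 6 tumours, an alternative chosen after seeing the data and by the values of the members themselves, it was 1 (9.03%). With the adipocyte score, 0 members were called higher with the 50th percentile filter, ranks, array weights, without mid79 and mid100, or without mid79, mid60 and mid100. The count was 2 of 33 without mid100 and mid71 (6.06%, against 11.6% of all genes) and 5 of 33 without the 6 tumours (15.2%, against 12%; Myl1, Des, Pygm, Neb and Acta1). With that score 1 member was called lower with another normalization (15.5% of all genes) and 1 with ranks (2.07%). With Erbb2, 1 member (Myl1) was called lower without mid100 and mid71 and 4 (Myl1, Des, Tnnt3 and Pygm) without the 6, each against 14.9% of all genes. Here, and in the same fits with the adipocyte score, mid79 and mid60 remained. The higher filter leaves out members with low means; for the other changes the cause was not tested. No paired analysis was possible because all 50 tumours form 1 group. Low signals limit what can be seen of weakly raised genes.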

Other observations

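Beyond muscle, matrix and vessels, mid100 carried other transcripts far above their medians. Cpa3 and Mcpt4, proteases of mast cells, stood at 10.07 and 8.12 log2 against medians of 4.24 and 3.22, and were 4.37 and 3.55 in mid71. Cxcl13, a chemokine that attracts B cells, was 11.50 in mid100 and 6.68 in mid71 against a median of 5.69. Dpt, Lum and Ogn, proteins of the extracellular matrix, gained 5.22, 4.53 and 4.96 log2 in mid100, and Ogn 2.25 in mid71 and 4.01 in mid9. Ifi205 and Cd209g gained 4.995 and 4.48 log2 in mid100. In mid71, by contrast, of the 10 genes outside the 34 members furthest above their median, 7 were in the muscle lists (Trdn, Myom1, Klhl41, Ppp1r3a, Nrap, Ampd1 and Tpm2), and Car3, Mstn and Cmya5 made up the rest.

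For 3 muscle microRNA genes, chosen after their values were seen, no excess reached 1 log2, and the medians of Mir1a-1 and Mir206, 3.11 and 2.94 log2, lie near the lowest value on the arrays, 2.53. Mir1a-1 had an excess of 0.54 log2 in mid100 and 0.23 in mid71, Mir206 of 0.08 and −0.05, and Mir133b of −0.07 and 0.11.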
